A study of Mus musculus with 3 samples.

Results

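The UDP-glycosyltransferases, the cytosolic sulfotransferases and the Nat8 family of N-acetyltransferases were followed through 3 single-cell RNA libraries of mouse kidney. Members were taken by gene symbol: every gene of the deposited tables whose symbol began with Ugt and a digit, with Sult and a digit, or with Nat8. This gave 52 genes of the 32285 listed, namely 9 of the Ugt1a locus, 10 of Ugt2, 3 of Ugt3 and Ugt8, 9 of Nat8 and 21 of Sult. The rule reads symbols only, but the families were picked with earlier results of these data known.

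Each library was made from whole kidney of male mice at 28 weeks of age. The db/db fructose group carried the leptin receptor mutation db on both alleles and ate 60% fructose for 20 weeks from 8 weeks of age. The db/db control group had the same genotype and a diet free of fructose over the same weeks, and the db/m control group carried 1 mutant allele beside a normal one and ate the control diet. Mice that lack the long leptin receptor become obese and diabetic, whereas db/m mice stay lean. Each group gave 1 library, and how many mice were pooled is not known here, so no difference has a replicate check, no test was run and each 95% interval covers counting error only.

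Conjugating enzymes attach a polar group to a drug, hormone, bile acid or other lipophilic molecule, which lets transporters carry the product into urine or bile. Glucuronidating enzymes of the Ugt1a and Ugt2 families use UDP-glucuronic acid and sit in the endoplasmic reticulum, and sulfotransferases use the cytosolic donor PAPS. Enzymes of the Nat8 type acetylate cysteine conjugates, which are made from glutathione conjugates by brush-border peptidases, and so finish mercapturates; this role was established for human NAT8. The proximal tubule is known as the main site of these reactions in kidney.

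The deposited libraries held 20383 (db/db fructose), 26513 (db/db control) and 13524 (db/m) barcodes with 42028885, 52704335 and 31660184 UMIs, of which 16049, 16224 and 9940 barcodes were kept as cells. The libraries shared 780 barcodes (db/db fructose with db/db control), 379 (db/db fructose with db/m) and 509 (db/db control with db/m). Proximal tubule-like clusters held 8623, 6486 and 5874 cells with medians of 1484, 1594 and 1524 UMIs. Different clusters made up that class in each library: clusters 1 and 3 held 3309 and 2913 of the db/db fructose cells, clusters 0 and 2 held 3380 and 2471 of the db/db control cells, and clusters 7, 9 and 10 held 2190, 1759 and 1669 of the db/m cells. The median mitochondrial share of proximal cells was 9.31%, 20.8% and 14.6%, and clusters without a name held 3.69%, 17.2% and 1.66% of kept cells. All 21 member ratios counted below in proximal cells stayed past 1.5-fold when CPM was taken over non-mitochondrial UMIs, an alternative chosen after seeing the data.

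Of the 52 members, 14 had no UMI in any kept cell and 7 had 1 to 20. In proximal cells a count of 0 allows a level of up to 0.218, 0.272 and 0.277 CPM (UMIs per 1000000 UMIs of the class) in the db/db fructose, db/db control and db/m libraries, at 3 counts. The 14 genes without a UMI were 5 of 10 Ugt2 genes and 9 of 21 Sult genes, among them Sult1e1, the oestrogen sulfotransferase. Nat8l, which makes N-acetylaspartate in brain, had 15 UMIs in all. The description below rests on 23 members, 19 that reached 10 CPM in all, early or late proximal cells of some library and 4 sulfotransferases whose highest class lay elsewhere.

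Promoter windows of 300 bases, 250 before and 50 after the gene start, were available from RefSeq (GRCm38.p6) for 45 of 52 members. Those of Ugt2b37, Ugt2b38 and Ugt2b5 are shown because they share a long run of bases, that of Ugt2b34 because its ratio between genotypes ran the other way, and those of Ugt1a2, Ugt1a6a, Nat8f5 and Nat8 as examples of the Ugt1a genes that were higher in db/db and of the Nat8 genes that were lower. The windows are Ugt2b37 at chr5:87254739-87255038 (minus strand), Ugt2b38 at chr5:87424154-87424453 (minus strand), Ugt2b5 at chr5:87140291-87140590 (minus strand), Ugt2b34 at chr5:86906888-86907187 (minus strand), Ugt1a2 at chr1:88200361-88200660 (plus strand), Ugt1a6a at chr1:88134559-88134858 (plus strand), Nat8f5 at chr6:85820923-85821222 (minus strand) and Nat8 at chr6:85832230-85832529 (minus strand). Each is written 5′ to 3′ on the gene's strand. The gene start is that of RefSeq. For Nat8 the GENCODE M21 start is at 85832082, so the whole window shown lies before that start. Capitals in the first 3 mark the longest run of bases that they share, and in Ugt1a6a, Nat8f5 and Nat8 the letters GTTAAT or their reverse complement, an arm of the palindrome bound by the hepatocyte factor HNF1.
Ugt2b37: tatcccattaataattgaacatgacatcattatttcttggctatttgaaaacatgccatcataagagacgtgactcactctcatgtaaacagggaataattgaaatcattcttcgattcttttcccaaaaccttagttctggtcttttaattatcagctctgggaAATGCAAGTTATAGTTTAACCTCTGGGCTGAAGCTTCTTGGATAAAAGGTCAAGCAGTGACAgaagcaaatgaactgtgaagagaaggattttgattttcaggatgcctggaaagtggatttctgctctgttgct
Ugt2b38: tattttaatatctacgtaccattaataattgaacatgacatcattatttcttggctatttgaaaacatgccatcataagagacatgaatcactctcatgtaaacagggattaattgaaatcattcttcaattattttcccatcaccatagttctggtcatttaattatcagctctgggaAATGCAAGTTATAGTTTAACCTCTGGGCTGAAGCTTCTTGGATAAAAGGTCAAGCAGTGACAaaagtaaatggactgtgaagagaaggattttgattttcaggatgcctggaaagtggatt
Ugt2b5: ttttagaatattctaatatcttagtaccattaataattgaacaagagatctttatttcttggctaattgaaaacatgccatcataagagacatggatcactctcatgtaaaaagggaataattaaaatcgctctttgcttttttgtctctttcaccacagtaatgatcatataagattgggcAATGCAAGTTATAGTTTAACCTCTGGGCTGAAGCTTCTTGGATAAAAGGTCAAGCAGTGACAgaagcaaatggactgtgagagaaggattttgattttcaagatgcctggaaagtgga
Ugt2b34: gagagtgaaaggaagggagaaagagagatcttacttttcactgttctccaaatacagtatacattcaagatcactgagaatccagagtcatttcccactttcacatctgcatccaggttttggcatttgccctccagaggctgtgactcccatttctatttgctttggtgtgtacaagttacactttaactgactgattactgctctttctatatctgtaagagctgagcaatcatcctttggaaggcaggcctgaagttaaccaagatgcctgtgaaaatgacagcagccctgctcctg
Ugt1a2: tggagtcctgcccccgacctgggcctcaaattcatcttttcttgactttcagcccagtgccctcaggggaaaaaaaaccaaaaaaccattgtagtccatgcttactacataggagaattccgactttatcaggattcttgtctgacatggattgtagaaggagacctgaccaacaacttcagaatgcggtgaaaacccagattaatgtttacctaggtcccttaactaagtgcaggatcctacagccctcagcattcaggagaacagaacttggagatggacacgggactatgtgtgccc
Ugt1a6a: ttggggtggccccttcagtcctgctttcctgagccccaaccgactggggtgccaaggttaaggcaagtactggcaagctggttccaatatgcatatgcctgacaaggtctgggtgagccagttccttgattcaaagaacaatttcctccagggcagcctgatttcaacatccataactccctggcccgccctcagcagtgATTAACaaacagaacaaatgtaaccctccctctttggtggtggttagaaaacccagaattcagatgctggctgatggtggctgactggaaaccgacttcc
Nat8f5: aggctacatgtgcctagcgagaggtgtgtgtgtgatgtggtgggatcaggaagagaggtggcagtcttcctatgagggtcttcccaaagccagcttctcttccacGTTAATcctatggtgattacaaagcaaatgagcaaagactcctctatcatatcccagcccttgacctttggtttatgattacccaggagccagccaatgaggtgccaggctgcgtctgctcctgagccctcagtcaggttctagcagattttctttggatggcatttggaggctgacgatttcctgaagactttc
Nat8: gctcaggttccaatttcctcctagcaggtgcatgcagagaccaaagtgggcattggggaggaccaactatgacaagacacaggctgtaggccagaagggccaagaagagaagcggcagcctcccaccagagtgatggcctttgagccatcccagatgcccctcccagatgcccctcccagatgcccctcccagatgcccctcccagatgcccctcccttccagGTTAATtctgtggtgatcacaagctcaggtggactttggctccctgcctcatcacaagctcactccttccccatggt

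The shared run was 62 bases long and began 85, 71 and 68 bases before the starts of Ugt2b37, Ugt2b38 and Ugt2b5. Of 32851 promoter windows in the table, only those 3 held it. Over the whole window Ugt2b37 and Ugt2b38 were 87.3% identical, Ugt2b5 and Ugt2b38 84.2%, and Ugt2b34 and Ugt2b37 55.3%. Within the Nat8 genes with the same neighbourhood on chromosome 6, promoter identity ran near 50% for most pairs, with 48.9% for Nat8 and Nat8f1 and 92.9% for Nat8f7 and Nat8f6. Identity was counted over gapped alignments and unrelated promoters were not aligned. Values near 50%, or the 55.3% above, can thus not be read as likeness. Some members have more than 1 window, which gave 50 in all. GTTAAT on either strand occurred in 15 of the 50, against 7.10% of all windows. The antioxidant response core TGACNNNGC occurred in 1 against 12.4%, and the STAT site TTCNNNGAA in 2 against 8.30%. A match is only a run of letters, and windows of neighbouring genes share ancestry.

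Summed over all members, proximal cells had 1483 CPM in the db/db fructose library, 1039 CPM in the db/db control library and 1934 CPM in the db/m library. By family the order was not shared. The Ugt2 genes summed to 247 CPM in db/db fructose, 136 CPM in db/db control and 520.0 CPM in db/m cells, and the Nat8 genes to 343, 154 and 430 CPM. Ugt3 and Ugt8 genes together gave 240.1, 143 and 418 CPM. Ugt1a genes ran the other way, with 225 and 212 CPM in the 2 db/db libraries against 125 CPM in db/m cells, and sulfotransferases stood at 428, 393 and 442 CPM. Sulfotransferase UMIs were thus 28.9%, 37.8% and 22.8% of all member UMIs in proximal cells.

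**Figure D1:**
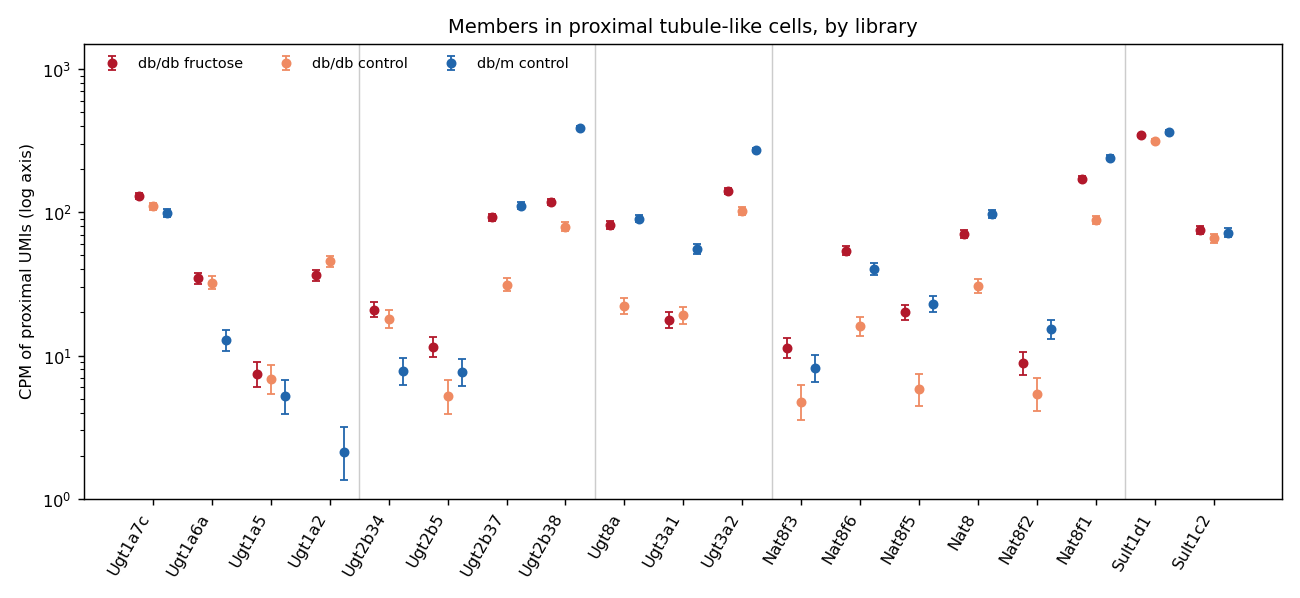
CPM of proximal UMIs (log axis) for the 19 members that reached 10 CPM in all, early or late proximal cells of some library; points are libraries, from left to right db/db fructose, db/db control and db/m control, bars are exact Poisson 95% intervals for counting error, and grey lines part the families. Most Ugt2b and Nat8 genes lie lowest in the db/db control library, while Ugt1a2 lies lowest in the db/m library at 2.13 CPM.

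The comparison of the 2 genotypes on the control diet asked how the members differed in proximal tubule-like cells of diabetic mice. A gene was measured at 10 CPM or more in the higher library and counted at a ratio of 1.5-fold or more. Of 16 measured members, 10 were lower and 3 higher in the db/db control library than in the db/m library, against 12.3% lower and 7.15% higher of 8617 measured genes. The median log2 ratio of the 16 was -1.43, against -0.01 over all measured genes. When early and late proximal cells, defined further down, were summed on their own, the same 10 genes were lower and the same 3 higher in each. Of all measured genes, 12.7% were then lower and 8.63% higher in early cells, and 14.1% and 8.33% in late cells.

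Among the Ugt2 genes, whose enzymes glucuronidate steroids, bile acids and drugs, Ugt2b38 was the most abundant in db/m cells. It had 119 CPM in the db/db fructose library, 79.7 CPM in the db/db control library and 391 CPM in the db/m library, a log2 ratio of -2.29 (95% interval -2.40 to -2.19) between db/db control and db/m. Ugt2b37 had 92.5 CPM in the db/db fructose library, 31.3 CPM in the db/db control library and 111 CPM in the db/m library, log2 ratio -1.83 (95% interval -2.01 to -1.65). Both were lowest in the db/db control library, and only for Ugt2b37 did the db/db fructose level come near that of db/m. Ugt2b34 ran the other way at 20.9 CPM in the db/db fructose library, 18.1 CPM in the db/db control library and 7.76 CPM in the db/m library, log2 ratio 1.22 (95% interval 0.84 to 1.60). Ugt2b5 stayed under the 10 CPM limit in this comparison, at 11.5, 5.18 and 7.67 CPM in the same order.

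Ugt8a transfers galactose to ceramide, the first step to sulfatides of kidney membranes. It had 81.7 CPM in the db/db fructose library, 22.1 CPM in the db/db control library and 90.6 CPM in the db/m library, from 1124, 243 and 980 UMIs. The db/db fructose and db/m levels were near each other and the db/db control level lay far under both, with a log2 ratio of -2.04 (95% interval -2.25 to -1.83) over db/m. Ugt3a1 and Ugt3a2, whose human counterparts use UDP-N-acetylglucosamine and other UDP-sugars, differed from that pattern. Ugt3a2 had 141 CPM in the db/db fructose library, 102 CPM in the db/db control library and 272 CPM in the db/m library, log2 ratio -1.41 (95% interval -1.52 to -1.32). Ugt3a1 had 17.7 CPM in the db/db fructose library, 19.1 CPM in the db/db control library and 55.2 CPM in the db/m library, log2 ratio -1.53 (95% interval -1.77 to -1.30), and its level was about as low in the db/db fructose library as in the db/db control library.

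All 5 measured Nat8 genes were lower in the db/db control library. Nat8f1, the most abundant, had 171 CPM in the db/db fructose library, 88.2 CPM in the db/db control library and 241 CPM in the db/m library, log2 ratio -1.45 (95% interval -1.56 to -1.34). Nat8 itself had 70.8 CPM in the db/db fructose library, 30.7 CPM in the db/db control library and 97.5 CPM in the db/m library, log2 ratio -1.67 (95% interval -1.85 to -1.49). Nat8f5 had 20.1 CPM in the db/db fructose library, 5.81 CPM in the db/db control library and 22.9 CPM in the db/m library, log2 ratio -1.98 (95% interval -2.40 to -1.58), and Nat8f6 and Nat8f2 had log2 ratios of -1.32 and -1.51. These genes lie side by side on the minus strand of chromosome 6. In the last 600 bases of their GENCODE M21 transcripts, 68.3% of 90-base windows were unique to Nat8f6 and none to Nat8f3 or Nat8f7, so counts of those 3 could be split between them; Nat8f5 overlaps the Nat8f6 gene model, although its own windows were all unique. For Nat8, Nat8f1 and Nat8f2 the unique share was 95.9%, 79.3% and 94.7%.

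The Ugt1a genes gave the highest ratios. Ugt1a2 had 36.4 CPM in the db/db fructose library, 45.8 CPM in the db/db control library and 2.13 CPM in the db/m library, from 501, 504 and 23 UMIs, and its log2 ratio between db/db control and db/m was 4.43 (95% interval 3.83 to 5.10), a 21.5-fold difference. Ugt1a6a, an enzyme for small phenols, had 34.7 CPM in the db/db fructose library, 32.2 CPM in the db/db control library and 12.8 CPM in the db/m library, log2 ratio 1.33 (95% interval 1.04 to 1.62). Both were high in the 2 db/db libraries whatever the diet. Ugt1a7c, the most abundant at the locus, had 130.3 CPM in the db/db fructose library, 110.0 CPM in the db/db control library and 98.9 CPM in the db/m library, log2 ratio 0.15 (95% interval 0.03 to 0.27), which is under 1.5-fold.

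At this locus each gene has its own first exon and all use the same later exons, which limits what a count near the 3′ end can say. No 90-base window in the last 600 bases was unique for 8 of the 9 Ugt1a genes. The Ugt1a7c model ends at 88220002 of chromosome 1, beyond the 88218997 to 88219004 of the others, and all of its windows there were unique. Any Ugt1a transcript that ran on to that end would be counted as Ugt1a7c. Ugt1a6a had no unique window along its whole transcript, so its counts are uncertain, whereas 36.9% of Ugt1a2 windows were unique. How reads in shared exons were assigned is not given in the sources used here.

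Sulfotransferases of the proximal tubule differed little. Sult1d1, which sulfates dopamine and other catecholamines in mouse, was the most abundant member in the db/db libraries at 345 CPM in the db/db fructose library, 314 CPM in the db/db control library and 365 CPM in the db/m library, log2 ratio -0.22 (95% interval -0.28 to -0.15) between db/db control and db/m. Sult1c2 had 75.5 CPM in the db/db fructose library, 66.0 CPM in the db/db control library and 72.0 CPM in the db/m library, log2 ratio -0.12 (95% interval -0.27 to 0.02). Neither reached 1.5-fold in either comparison.

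The comparison of the 2 diets within db/db asked how the members differed with 60% fructose. It shares the db/db control library with the comparison above, so a low level there lowers 1 ratio and raises the other. Of 17 measured members, 8 were higher and 0 lower in the db/db fructose library, against 11.8% higher and 1.35% lower of 8919 measured genes. The median log2 ratio of members was 0.58, and that of all measured genes was itself 0.26. When libraries were scaled by size factors (median of ratios) instead, the median of all genes was -0.02, and higher genes were 49.3% of those counted, against 89.7% under CPM. The ratios of all 8 members stayed past 1.5-fold with size factors, although 1 of them then missed the 10 CPM limit, and 1 member was counted as lower.

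All 5 measured Nat8 genes were among the 8. Nat8f5 had a log2 ratio of 1.79 (95% interval 1.39 to 2.20), Nat8f6 of 1.75 (95% interval 1.51 to 1.99) and Nat8f3 of 1.26 (95% interval 0.80 to 1.75). The ratios of Nat8 and Nat8f1 were 1.21 and 0.96. Nat8f6 stood at 54.1, 16.1 and 40.0 CPM in the db/db fructose, db/db control and db/m libraries, so its level with fructose lay above that of db/m. Nat8f3 stood at 11.3, 4.72 and 8.13 CPM in the same order.

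Ugt8a had a log2 ratio of 1.89 (95% interval 1.69 to 2.09), Ugt2b37 of 1.56 (95% interval 1.39 to 1.74) and Ugt2b5 of 1.15 (95% interval 0.70 to 1.61). Ugt2b38 lay just short of the limit at 0.58 (95% interval 0.46 to 0.70) and was not counted, and its level with fructose remained well under that of db/m. Ugt3a2 had 0.46 and Ugt3a1 -0.10. Ugt1a2 had -0.33 (95% interval -0.51 to -0.15) and Ugt1a6a 0.10, so neither gene of the Ugt1a locus that was high in db/db reached 1.5-fold between the diets under CPM. With size factors the Ugt1a2 ratio was -0.60, just past the limit.

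**Figure D2:**
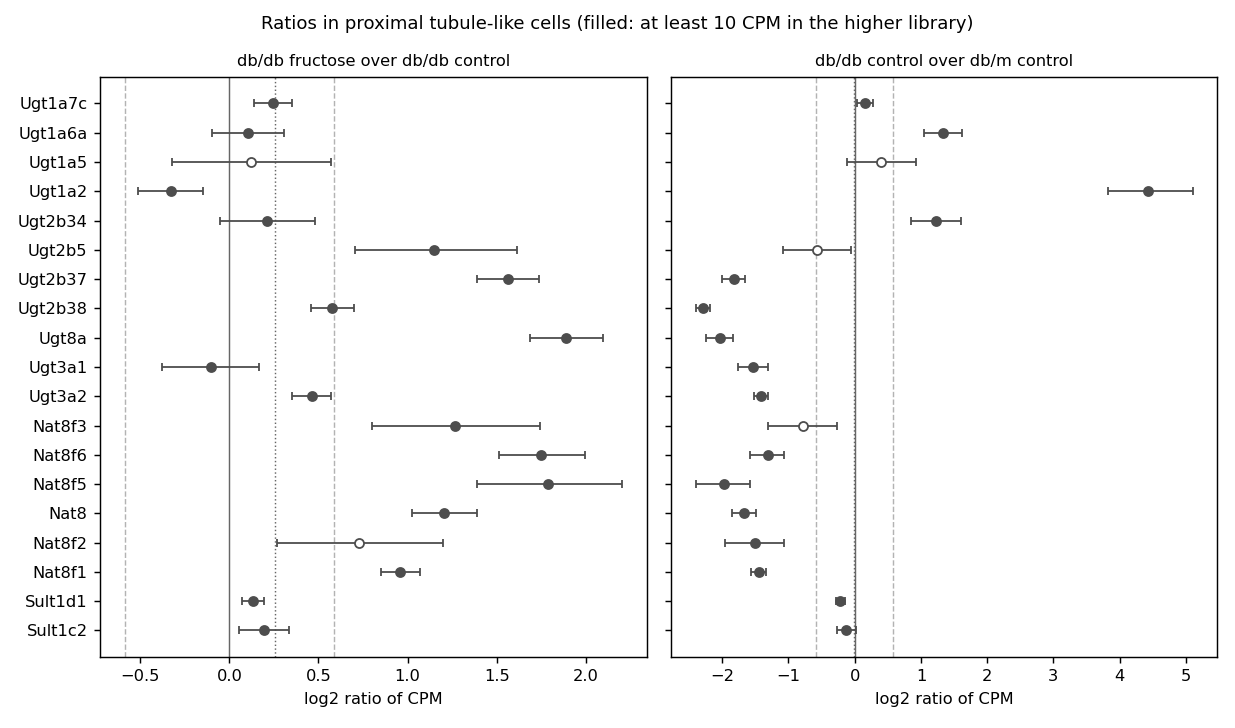
Log2 ratio of proximal CPM for 19 members, with db/db fructose over db/db control on the left and db/db control over db/m control on the right; bars are exact conditional 95% intervals for counting error, filled points had at least 10 CPM in the higher library, dashed lines mark 1.5-fold and the dotted line the median of all measured genes. Nat8 genes, Ugt8a and Ugt2b37 lie right of the limit for diet and left of it for genotype, and Ugt1a2 lies at 4.43 for genotype and -0.33 for diet.

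Proximal cells were placed along the tubule by 8 early and 7 late marker genes, none of them a member. Early cells numbered 4901 (56.8% of proximal cells) in db/db fructose, 3795 (58.5%) in db/db control and 1950 (33.2%) in db/m, and late cells 2402, 1321 and 2462 (27.9%, 20.4% and 41.9%). When whole clusters of a library were placed instead, the late shares of all proximal cells were 43.3%, 39.9% and 37.3%. The early shares were 56.7%, 59.1% and 32.3%. Nearly all db/db cells were then placed, but in db/m only 1898 early and 2190 late cells of 5874 were. The db/m late share was thus the lowest with many cells in neither group. By either placing, late cells outnumbered early cells in db/m only. The late markers themselves differed between libraries, with Atp11a at 1066, 545 and 2065 CPM in late cells, so a late cell is not defined alike in each library. The placing is a range and not a type, and 1053, 860 and 749 cells lay within 0.05 of a limit. Gatm, an early gene left out of the placing, was lower in late cells of each library, with log2 ratios of -1.46, -1.17 and -1.71, whereas Slc34a1, the other such gene, differed little, with -0.17, -0.22 and -0.22. The late gene Slc7a13 was higher in late cells, with 2.50, 1.08 and 1.91, and Slc22a30 had 1.51, 1.94 and 1.23.

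In every library 14 members had 10 CPM or more in the higher of the 2 segments. Of these, 5 were at least 1.5-fold higher in late cells of every library and 1 in early cells, against 2.66% and 1.59% of 8128 genes. With clusters placed whole these counts were also 5 and 1. Ugt2b5 was the most late of them, with late over early log2 ratio 3.32 in db/db fructose, 2.77 in db/db control and 2.49 in db/m cells, though from only 23, 12 and 9 UMIs in early cells. For Ugt2b37 these ratios were 2.79, 1.97 and 1.32 in the same order, for Nat8f6 2.18, 1.73 and 1.79, for Nat8 1.63, 1.23 and 1.04 and for Ugt3a1 1.57, 1.28 and 0.73. Ugt2b34 was early, with -1.05, -0.94 and -2.08. Sult1d1 and Ugt2b38 stayed within 1.5-fold in each library, with 0.08, 0.21 and -0.13 for Sult1d1 and -0.37, -0.31 and -0.27 for Ugt2b38. The promoter run shared by Ugt2b37, Ugt2b38 and Ugt2b5 thus belongs to genes with unlike segment levels.

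Ugt8a was late in db/db and not in db/m, with late over early log2 ratio 1.29 in db/db fructose, 1.42 in db/db control and -0.17 in db/m cells. In early cells it had 52.7, 14.4 and 97.0 CPM in the db/db fructose, db/db control and db/m libraries, and in late cells 129, 38.5 and 86.1 CPM. The ratio of db/db control to db/m was -2.75 (95% interval -3.10 to -2.42) in early cells and -1.16 (95% interval -1.51 to -0.83) in late cells; whether these differ between mice was not tested. Nat8f5 had 11.6, 5.66 and 10.3 CPM in early cells and 34.7, 6.05 and 29.8 CPM in late cells, so late cells of the db/db control library stood apart from late cells of the others. Its diet ratio was 1.03 (95% interval 0.46 to 1.62) in early cells and 2.52 (95% interval 1.73 to 3.43) in late cells, from 14 UMIs in late cells of the db/db control library.

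Late cells alone gave 11 members higher with fructose of 19 measured and 0 lower, against 18.6% and 2.35% of genes. Early cells alone gave 6 higher and 1 lower of 15, against 12.2% and 1.45%; the 1 lower was Ugt1a2, with -0.68 (95% interval -0.94 to -0.41). In all, 6 genes were higher with fructose in early, late and all proximal cells: Nat8, Nat8f1, Nat8f5, Nat8f6, Ugt2b37 and Ugt8a. Ugt2b37 had 30.6, 16.8 and 62.1 CPM in early cells and 212, 66.1 and 155 CPM in late cells, so its late level with fructose was the highest of the 3 libraries. Ugt2b38 was lower in db/db control than in db/m to a like degree in both, with log2 ratios of -2.25 in early and -2.29 in late cells.

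**Figure D3:**
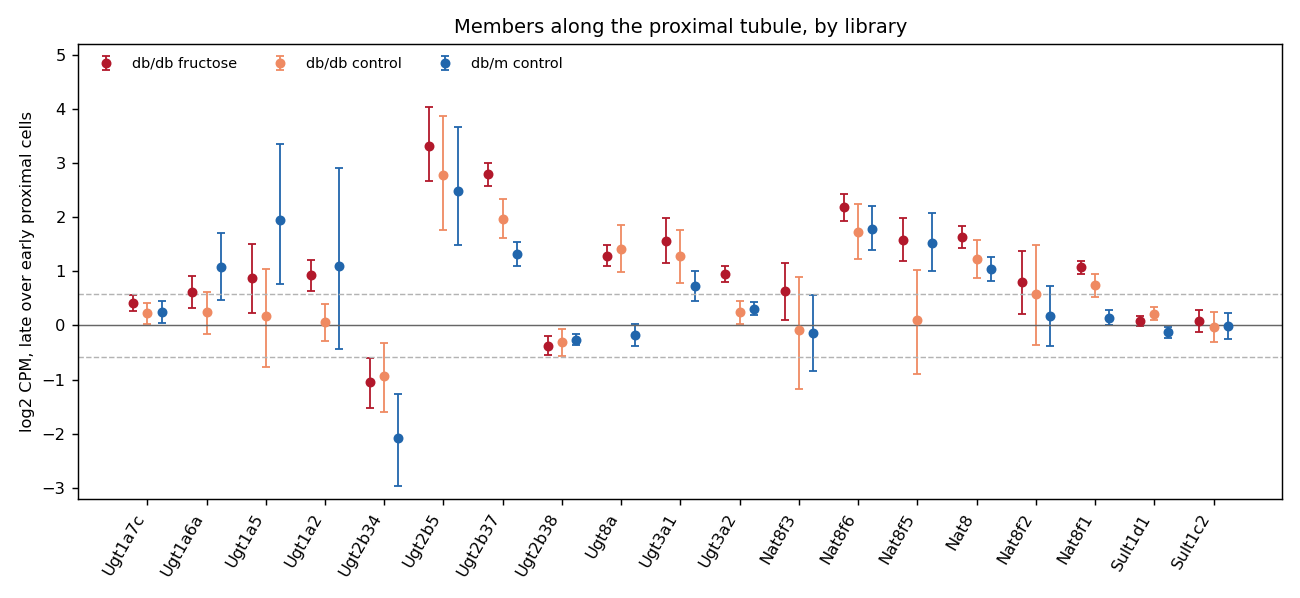
Log2 ratio of CPM in late over early proximal cells for 19 members; points are libraries, from left to right db/db fructose, db/db control and db/m control, bars are exact conditional 95% intervals for counting error, and dashed lines mark 1.5-fold. Ugt2b5, Ugt2b37, Nat8f6, Nat8 and Ugt3a1 lie above the upper line in all 3 libraries, Ugt2b34 lies under the lower line, and Ugt8a lies above the upper line in both db/db libraries and between the lines in db/m.

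Outside the proximal tubule, free RNA gives UMIs to cells that do not express a gene. The summed level of the 22 proximal markers in other classes was 12.0% to 35.1% of that in proximal cells of the db/db fructose library, 13.5% to 36.4% in db/db control and 11.1% to 36.6% in db/m. Single markers spread more widely, up to 68.3% in thick ascending limb-like and 235% in phagocyte-like cells. The 235% lies above the proximal level, so it is no measure of free RNA. A member is named here where its share was at least 2 times that of the marker sum in each library and at least 20 UMIs were counted in the class.

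Sult1a1, the phenol sulfotransferase, was highest in endothelium. In endothelium-like cells it had 105 CPM in the db/db fructose library, 102 CPM in the db/db control library and 87.9 CPM in the db/m library, against 5.31, 8.54 and 2.03 CPM in proximal cells in the same order. Within the endothelium, summed over libraries, cluster 13, led by Plat, Emcn and Ehd3, had 129 CPM and cluster 26, led by Plvap, had 122 CPM, while clusters 16 and 19 had 73.1 and 52.2 CPM. Distal convoluted tubule-like cells came next with 77.5, 71.4 and 52.4 CPM, and thin limb-like cells had 51.4, 42.9 and 35.9 CPM. Sult1a1 also passed the limit in intercalated-like, thick ascending limb-like, connecting tubule and principal-like and phagocyte-like cells. The same held for the pericyte, mesangial and smooth muscle-like class. Between libraries the endothelial level differed by less than 1.5-fold, with log2 ratios of 0.03 (-0.22 to 0.28) for diet and 0.22 (-0.11 to 0.55) for genotype.

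Sult2b1, which sulfates cholesterol, was highest in thin limb-like and principal-like cells. Thin limb-like cells had 66.4 CPM in the db/db fructose library, 116 CPM in the db/db control library and 104 CPM in the db/m library, from 31, 27 and 52 UMIs, and connecting tubule and principal-like cells had 26.2, 16.6 and 23.7 CPM in the same order. Of its UMIs in connecting tubule and principal-like cells, 170 fell in cluster 14 (33.2 CPM) and 13 in cluster 11 (4.32 CPM), both led by Aqp2. Endothelium-like and phagocyte-like cells had no UMI, which at 3 counts allows 1.10, 1.24 and 2.31 CPM in endothelium and 3.55, 3.43 and 10.6 CPM in phagocytes.

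Sult5a1 and Sult2a3 were highest in intercalated-like cells. Sult5a1 had 46.5 CPM in the db/db fructose library, 25.8 CPM in the db/db control library and 31.2 CPM in the db/m library in intercalated-like cells and at most 5 UMIs in the proximal cells of any library. It was present in each of the 3 intercalated clusters, at 29.2, 47.6 and 22.5 CPM in clusters 18, 20 and 28. Sult2a3, of the hydroxysteroid group, had 7, 16 and 17 UMIs there, or 8.57, 11.2 and 24.1 CPM. All 40 of those UMIs lay in cluster 20, the cluster with Slc26a4 and Insrr among its leading genes, as in the base-secreting intercalated type, and clusters 18 and 28 had 0, with upper 95% limits of 4.30 and 3.32 CPM.

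**Figure D4:**
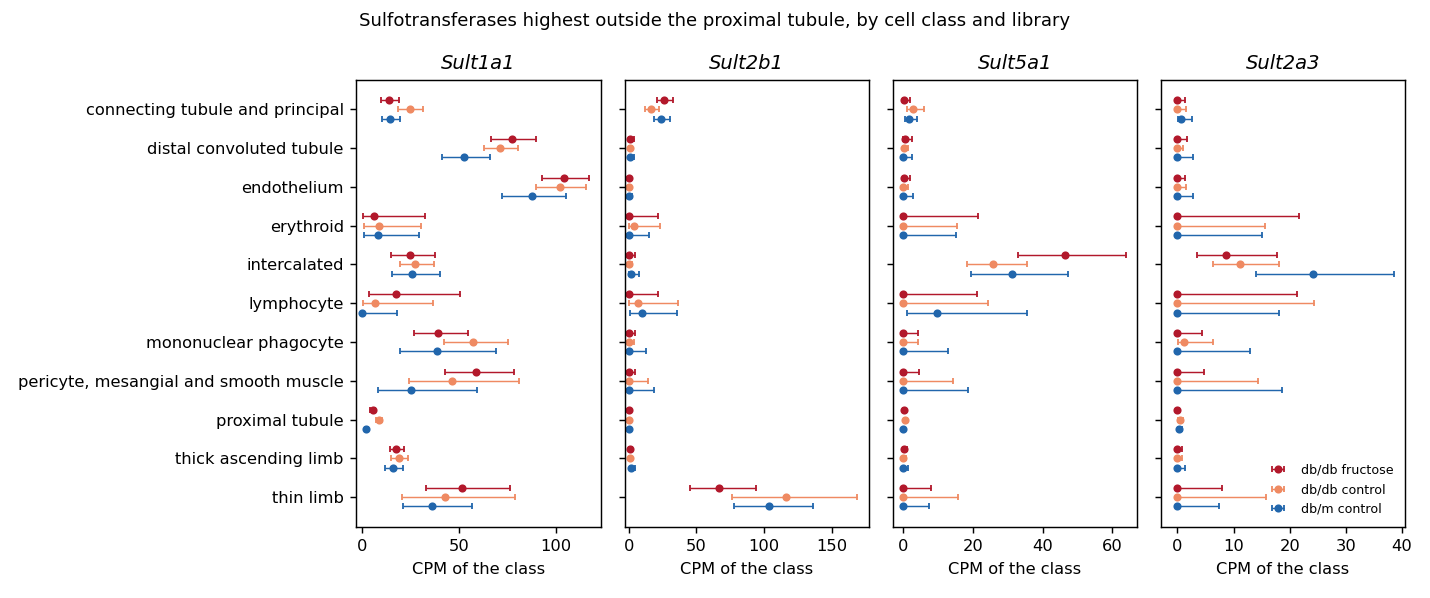
CPM of 4 sulfotransferases in each cell class with at least 50 cells per library; colours from top to bottom within a class are db/db fructose, db/db control and db/m control, and bars are exact Poisson 95% intervals for counting error. Sult1a1 is highest in endothelium, Sult2b1 in thin limb, and Sult5a1 and Sult2a3 in intercalated cells, in all 3 libraries.

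Several proximal members also passed this limit further along the nephron. Sult1d1 had 282 CPM in the db/db fructose library, 259 CPM in the db/db control library and 255 CPM in the db/m library in thick ascending limb-like cells, 81.7%, 82.3% and 69.9% of its proximal level against 21.7%, 25.7% and 26.1% for the marker sum and at most 46.6%, 68.3% and 41.2% for a single marker. Its intercalated level was 212, 236 and 231 CPM and its thin limb level 375, 296 and 159 CPM in the same order. Nat8f1 had 124, 159 and 201 CPM in thin limb-like cells, which was above the proximal level in the db/db control library only. Ugt8a had 33.8, 19.0 and 43.9 CPM in connecting tubule and principal-like cells, where the db/db control library was again the lowest, with a log2 ratio over db/m of -1.21 (-1.73 to -0.71). These were 41.4%, 86.3% and 48.5% of its proximal level, against 12.6%, 18.6% and 16.4% for the marker sum. Free RNA was not subtracted, so this ratio is not independent of the proximal ratio. Sult1c2 in distal convoluted tubule-like and thin limb-like cells and Ugt1a7c in phagocyte-like cells also passed the limit, but they are not read as above free RNA. Sult1c2 had 47.7%, 48.0% and 61.6% of its proximal level in distal convoluted tubule-like cells, where single markers reached 48.6%, 59.9% and 48.4%. In thin limb-like cells it had 45.4%, 39.0% and 49.8%, from 40 UMIs in all, where single markers reached 42.6%, 68.0% and 18.8%. Ugt1a7c had 49.0%, 57.2% and 49.8%, where single markers reached 235%, 214% and 122%.

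Genes that feed these enzymes or act beside them were taken from 6 lists, 60 genes in all, of which 48 were measured in proximal cells. In db/db control against db/m, 20 were lower and 5 higher, against 12.3% and 7.15% of all measured genes, and the 48 had a median log2 ratio of -0.47, against -0.01 over all. Other conjugating enzymes were lower in 9 of 10 measured. Acsm3, an acyl-CoA ligase, had 7.18 CPM in db/db control against 131 CPM in db/m cells, log2 ratio -4.19, Inmt, a methyltransferase for indole amines, had 33.2 CPM in db/db control against 249 CPM in db/m cells, log2 ratio -2.91, and Keg1, a glycine acyltransferase-like gene, had 207 CPM in db/db control against 1243 CPM in db/m cells, log2 ratio -2.59. Keg1 is also a marker that helped to name proximal clusters, as are Acsm2, Slc22a6, Slc22a8 and Hnf4a on these lists. Of these, Keg1, Acsm2 and Slc22a6 were among the 20 lower genes.

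The mercapturate list, whose enzymes act before and after the Nat8 step, was lower in 6 of 8. Acy3, which removes the acetyl group again, had 102 CPM in db/db control against 835 CPM in db/m cells, log2 ratio -3.03, and Ggt1, which cleaves glutathione conjugates at the brush border, had 286 CPM in db/db control against 486 CPM in db/m cells, log2 ratio -0.77. On the list for UDP-glucuronic acid and other UDP-sugars, 2 of 6 genes were lower, Gusb and Uxs1, with log2 ratios of -1.04 and -0.65. The other 4, Ugp2, Ugdh, Slc35d1 and Slc35d2, lay within 1.5-fold, and supply of the sugars was not measured. In late cells alone the lower genes of this list were Ugdh, Slc35d2 and Gusb, beside 14.1% of all measured genes. For PAPS and sulfate, Slc13a1, the brush-border sulfate carrier, was higher at 738 CPM in db/db control against 395 CPM in db/m cells, log2 ratio 0.90, Bpnt1 was lower, and 7 of 9 lay within 1.5-fold. On the list of transporters, 6 were measured. Abcc4, an efflux pump for conjugates, was higher with 103 CPM in db/db control against 19.4 CPM in db/m cells, log2 ratio 2.40. Abcc2 was higher with a log2 ratio of 0.62, while the carriers Slc22a6 and Slc22a12, of another family, were lower. No regulator on the list was lower and 2 of 9 were higher, Ppara with 0.71 and Nfe2l2, the factor of the antioxidant response, with 0.67. Kap, the kidney androgen-regulated protein gene and a proximal marker, had 346, 101 and 5504 CPM in the db/db fructose, db/db control and db/m libraries. Some members shared this order, among them Ugt2b38, Ugt2b37, Ugt8a, Nat8f1 and Sult1d1, the last with differences under 1.5-fold. Ugt1a2, Ugt1a5, Ugt1a6a, Ugt1a7c, Ugt2b5, Ugt2b34, Ugt3a1, Nat8f3, Nat8f6 and Sult1c2 did not. How many of all genes share this order was not counted. Whether the members' ratios go with that of Kap was not tested.

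With fructose against the db/db control diet, 13 of 48 were higher and 1 lower, beside the 11.8% and 1.35% of all genes. The 1 lower was Abcc4, with 55.6 CPM in db/db fructose against 103 CPM in db/db control cells, log2 ratio -0.88. Nat2, an arylamine acetyltransferase, had 29.7 CPM in db/db fructose against 10.8 CPM in db/db control cells, log2 ratio 1.46. The sulfate carriers Slc26a1 and Slc26a2 and the PAPS carrier Slc35b3 had log2 ratios of 0.68, 0.81 and 0.65. Under size factors only 4 of these genes were higher and 4 lower, so this count depended on the scaling.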

How the data were processed

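The values were counts of UMIs per gene and barcode, which the authors deposited as 1 matrix per library; they were made with Cell Ranger 6.0.0 on mm10, per the submitters' processing notes. Per the labels' protocols, perfused kidneys were digested by collagenase with pronase after mincing, and red blood cells, debris and dead cells were then depleted. Members, gene lists and limits were chosen with earlier results of these data known.

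Cells were barcodes with 200 genes or more and a mitochondrial share of UMIs up to 50%, and the highest Scrublet scores were removed at the doublet rate expected for the number of barcodes, which leaves some doublets in. Kept cells had medians of 1531 (db/db fructose), 1628 (db/db control) and 1679 (db/m) UMIs. They were clustered together without integration (scanpy 1.11.5, leidenalg 0.10.2; 2000 variable genes, 30 components, 15 neighbours, resolution 1), and 29 of 33 clusters were named X-like from 15 marker lists; the rule was revised once after clusters had been seen, so that a name needs an own marker among the 10 leading genes. Other names could move shares and levels. A proximal cell with at least 3 marker UMIs was early where the scaled early part was over 0.6 and late where it was under 0.4.

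UMIs were summed per class and library and given as CPM with exact Poisson 95% intervals, and ratios with exact conditional binomial 95% intervals (scipy 1.17.1), for counting error only; the ratio code was tested on simulated data. Cells are not replicates and 1 library per group allows no test. Described members were those with 10 CPM in all, early or late proximal cells of any library, or with another highest class holding at least 20 UMIs. Of the other genes in the lists, those counted at 1.5-fold could be named, at most 3 per list and direction; 1 such gene and 1 promoter motif are not reported here. Positions and transcripts were from GENCODE M21 by gene identifier, matched for all 52 members, and promoters from RefSeq.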

Additional observations from a re-analysis of the deposited data

How the results depend on the processing

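No paired analysis was possible because each group holds 1 library and the labels carry no replicate number. Of 36 member ratios in proximal cells, 21 passed 1.5-fold, and all 21 kept their side under size factors, stricter mitochondrial and gene limits, doublets kept, resolution 2, each library clustered alone, early or late cells alone and CPM of non-mitochondrial UMIs; the last 3 were chosen after seeing the data. The Ugt1a2 ratio for diet, -0.33 in the report, was -0.60 under size factors, -0.68 in early cells and 0.19 in late cells. Early cells alone moved the ratios of Ugt8a, Ugt2b34, Nat8f5 and Ugt2b37 by over 1.5 times, and late cells alone those of Ugt8a, Ugt2b37 and Nat8f5. Some counts depended on the rule for counting. Members lower with fructose, 0 in the report, were 1 under size factors, under libraries clustered alone, in early cells and under non-mitochondrial CPM, and 3 at a minimum of 1 CPM; members higher with fructose, 8 in the report, were 5 at a minimum of 50 CPM. Members higher in db/db control than in db/m, 3 in the report, were 8 at a minimum of 1 CPM and 0 at 50 CPM. At 50 CPM, 2 members in place of 5 were late and 0 in place of 1 early, and at 2-fold 0 were early. List genes higher with fructose, 13 in the report, were 4 under size factors, 6 under non-mitochondrial CPM, 8 at 50 CPM and 1 at 2-fold. Those lower, 1 in the report, were 4 under size factors, 3 under non-mitochondrial CPM, 2 at 1 CPM, at 30% mitochondrial UMIs, at resolution 2 and in early cells, and 0 at 2-fold. Against db/m, list genes higher in db/db control were 1 and lower 7 at 2-fold, in place of 5 and 20. The cause was not tested where the setting does not itself change which genes are counted. With 1 library per group, the mice, the digestion and the genotype or diet cannot be told apart, and depth limits members under 10 CPM.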

Other observations

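Members below 10 CPM were left out of the counts above, and those named here, apart from Ugt1a5, which reached 10 CPM in late cells, were chosen after their values were seen. Ugt1a1, the bilirubin glucuronidating enzyme, had 7.05 CPM in the db/db fructose library, 5.18 CPM in the db/db control library and 0.924 CPM in the db/m library in proximal tubule-like cells, from 97, 57 and 10 UMIs. Ugt1a10 had 2.04 CPM in the db/db fructose library, 4.27 CPM in the db/db control library and 0.370 CPM in the db/m library, and Ugt1a9 had 7, 13 and 1 UMIs in the same order. For these 3 genes of the Ugt1a locus, as for Ugt1a2 and Ugt1a6a, the db/m library was the lowest. Ugt1a5 had 7.41, 6.81 and 5.18 CPM and Ugt1a6b had 6.69, 6.54 and 4.16 CPM, again in that order. In late proximal cells Ugt1a10 had 2.52, 9.94 and 0.793 CPM in the db/db fructose, db/db control and db/m libraries, and in early cells 1.80, 1.84 and 0 CPM. Reads of the shared exons cannot be assigned among these genes.

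Nat8f4 had 5.45 CPM in the db/db fructose library, 2.54 CPM in the db/db control library and 3.05 CPM in the db/m library in proximal cells and Ugt2a3 had 3.27, 2.09 and 2.50 CPM in the same order. Sult1b1, which sulfates thyroid hormones, had 2.11, 2.18 and 1.57 CPM and Sult4a1, known from brain, had 16 UMIs in all kept cells. In thin limb-like cells, where proximal markers stood at 12.0%, 13.5% and 11.1% of their proximal level, Ugt8a had 45.0, 38.6 and 53.8 CPM, from 21, 9 and 27 UMIs. The thin limb-like class held 93, 52 and 77 cells, and its median depth was 3039, 3057 and 5352 UMIs.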
